A study of Mus musculus with 6 samples.

Results

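The genes described are the myogenic regulators and satellite cell factors Pax7, Myf5, Myf6, Myod1, Myog, Mef2a, Mef2c, Mef2d, Cdh15 and Megf10, measured in fasted mouse muscle with and without ATF4. They were given as a named list of 10 genes out of 14860 genes that had an array feature annotated to exactly 1 symbol. Each of the 10 had 1 such feature. Expression had been measured by 1-colour microarray in tibialis anterior (a muscle at the front of the shin, rich in fast fibres) of 3 male ATF4 mKO mice and 3 male littermate controls. ATF4 mKO mice carry a knockout of the transcription factor ATF4 that is specific to muscle. All 6 mice were 8 weeks old and had been fasted for 24 h, controls included, so no fed muscle enters the comparison. The labels name neither the Cre driver nor the alleles of the controls. Whether satellite cells, which are not muscle fibres, had lost Atf4 is therefore not known here.

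Satellite cells are the stem cells of skeletal muscle. They lie between the fibre and its sheath, rest in uninjured muscle and are marked by the paired-box factor Pax7. When they are activated, basic helix-loop-helix factors drive them towards new fibres: Myf5 and Myod1 commit the cell, and Myog and Myf6 (MRF4) act in differentiation and in the mature fibre. These factors pair with E proteins and bind E-boxes, while MEF2 factors bind AT-rich sites in many of the same muscle genes. The comparison addresses whether the mRNAs of this circuit depend on ATF4 in the muscle of fasted mice.

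The regulatory sequence upstream of Myog is the textbook case of this circuit, with E-boxes and a MEF2 site close to the start of transcription. It is printed with the region of Cdh15, the satellite cell adhesion gene. Its window held the most E-boxes among those of the genes described that had a window. Sequences are from RefSeq, build GRCm38.p6, 250 bases before to 50 after the start, with both strands searched. Capitals mark the E-box CANNTG and the MEF2 core CTANNNNTA, which did not overlap in either sequence.
Myog, chr1:134289754-134290053, plus strand: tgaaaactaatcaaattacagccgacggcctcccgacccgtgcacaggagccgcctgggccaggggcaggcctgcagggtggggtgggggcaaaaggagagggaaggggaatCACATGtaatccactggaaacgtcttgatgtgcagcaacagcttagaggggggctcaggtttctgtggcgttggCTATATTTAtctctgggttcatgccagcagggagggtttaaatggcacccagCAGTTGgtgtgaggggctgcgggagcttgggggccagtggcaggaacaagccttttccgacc
Cdh15, chr8:122848124-122848423, plus strand: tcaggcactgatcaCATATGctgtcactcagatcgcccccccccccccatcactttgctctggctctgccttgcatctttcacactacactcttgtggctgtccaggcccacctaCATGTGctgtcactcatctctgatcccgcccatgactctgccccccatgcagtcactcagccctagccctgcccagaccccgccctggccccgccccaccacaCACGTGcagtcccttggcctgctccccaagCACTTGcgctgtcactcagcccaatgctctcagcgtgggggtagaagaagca

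In the Myog window the E-boxes began at -138 and -12 and the MEF2 core at -64, counted from the start site. The Cdh15 window held E-boxes beginning at -236, -135, -32 and -2. Of the 10 genes, 7 had 9 windows in the table, Mef2c having 3; Myf6, Myod1 and Megf10 were not matched. An E-box was found in 4 of the 9 windows, against 72.3% of all 32851 windows of that length, and the MEF2 core in 4 of 9, against 21.0%. The E-box form CAGCTG was found in 0 of 9 (16.3% of all windows). The composite element to which ATF4 binds with C/EBP factors, searched as TGATGNAA, was also found in 0 of 9 (3.97% of all windows). These are letter matches in short windows and say nothing of binding.

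The deposited values are log2 expression values, 1 per feature and mouse, so a difference of 1 is a doubling of the signal. They were compared with limma, a linear model with moderated variances, fitted over all 16755 features and adjusted by Benjamini-Hochberg, with an adjusted p of 0.05 as the threshold. Atf4 itself read 6.73, 7.07 and 6.97 in ATF4 mKO muscle, against 8.65, 8.76 and 8.76 in control muscle. No ATF4 mKO mouse reached the lowest control, and 28.7% of the control signal remained (log2 fold change -1.80 ± 0.10, SE; limma adjusted p = 0.00268). In all, 2 of the 16755 features passed the threshold (0.0119%), both lower. The samples read as muscle: all 13 measured fibre markers had means above the median of the table, and the actin gene Acta1 stood between 12.19 and 12.33 in the 6 mice. Fibre markers averaged 11.55 to 11.57 in ATF4 mKO muscle and 11.51 to 11.54 in control muscle.

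None of the 10 myogenic and satellite cell genes passed the threshold (0 of 10, against 0.0119% of all features), and each had a limma adjusted p of 1.00. In none did the groups separate (0 of 10, against 7.78% of all features, 3.89% lower and 3.89% higher). None had an unadjusted limma p under 0.05 (3.09% of all features, 1.71% lower and 1.38% higher). Of the 10, 5 lay above control and 5 below. The median log2 fold change was 0.0034, beside 0.0013 for all features. For all genes but Mef2d the 95% interval of the difference lay between -0.5 and 0.5, and for all 10 it lay between -1 and 1, so that a doubling or a halving of the signal was outside it.

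**Figure D1:**
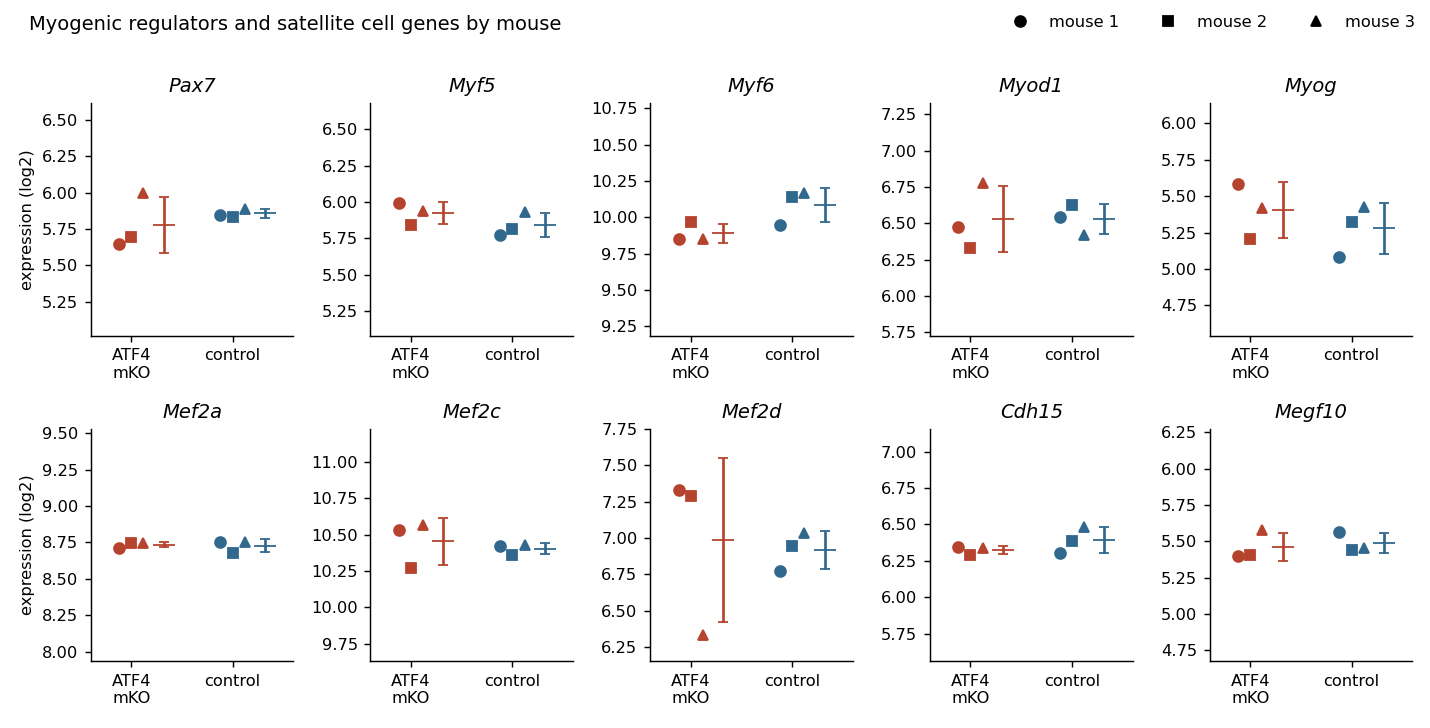
Log2 expression of the 10 genes in ATF4 mKO (left, red) and control (right, blue) tibialis anterior, with 1 symbol per mouse and the mean ± SD of 3 mice beside the points; every panel spans the same number of log2 units. In each panel the groups overlap, and Mef2d has the widest spread, with ATF4 mKO mouse 3 at 6.33.

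Among the satellite cell genes, Pax7 (feature 6926369) encodes the paired-box factor that marks these cells and is needed to maintain them. It read 5.64, 5.69 and 5.99 in ATF4 mKO muscle, against 5.85, 5.83 and 5.89 in control muscle. The controls sat close together, while ATF4 mKO mice 1 and 2 lay below all of them and ATF4 mKO mouse 3 above. Means were 5.78 ± 0.19 in ATF4 mKO muscle and 5.86 ± 0.03 in control muscle (SD, n = 3 each). The level was 94.5% of control with a 95% interval of 80.0% to 112%. Without ATF4 mKO mouse 3 the log2 fold change was -0.19 in place of -0.08, and it did not pass the threshold (limma adjusted p = 1.00; range over the alternatives 0.983 to 1.00).

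Cdh15, or M-cadherin, holds the satellite cell to its fibre and joins myoblasts (feature 6979655). It read 6.34, 6.29 and 6.34 in ATF4 mKO muscle, against 6.30, 6.38 and 6.49 in control muscle. The lowest control lay among the ATF4 mKO mice. The level was 95.6% of control (95% interval 84.4% to 108%). Megf10, a transmembrane protein with EGF-like repeats that acts in satellite cell proliferation, read 5.40, 5.41 and 5.57 in ATF4 mKO muscle (feature 6861173). Control muscle read 5.57, 5.44 and 5.46. Here, as for Pax7, ATF4 mKO mice 1 and 2 lay below every control and ATF4 mKO mouse 3 above every control. The level was 98.1% of control (85.8% to 112%). In whole muscle, fewer satellite cells and less RNA per cell cannot be told apart.

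Among the commitment factors, Myf5 (feature 6776782) read 5.99, 5.84 and 5.94 in ATF4 mKO muscle, against 5.77, 5.81 and 5.93 in control muscle. Each ATF4 mKO mouse lay above controls 1 and 2, but ATF4 mKO mouse 2 lay below control 3. The level was 106% of control, with an interval of 93.0% to 121%. Myod1, the factor able to turn other cell types into muscle (feature 6960454), read 6.48, 6.33 and 6.78 in ATF4 mKO muscle. Control muscle read 6.54, 6.62 and 6.42. The means were nearly equal, 6.53 ± 0.23 in ATF4 mKO muscle and 6.53 ± 0.10 in control muscle (SD, n = 3 each), while the ATF4 mKO mice reached both further down and further up than the controls. The level was 99.98% of control with an interval of 82.0% to 122%. The sign of this difference turned in 5 of 17 alternatives. Only those that rescale or weight the arrays or leave out a mouse change the value, so the others could not turn it. Leaving out ATF4 mKO mouse 3 gave -0.12 and leaving out ATF4 mKO mouse 2 gave 0.10.

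Of the differentiation factors, Myf6, the myogenic factor most abundant in adult fibres, came nearest to a difference (feature 6776784). It read 9.85, 9.97 and 9.85 in ATF4 mKO muscle, against 9.95, 10.14 and 10.17 in control muscle. ATF4 mKO mice 1 and 3 lay below every control and ATF4 mKO mouse 2 lay just above control 1. Means were 9.89 ± 0.07 in ATF4 mKO muscle and 10.08 ± 0.12 in control muscle (SD, n = 3 each). The log2 fold change was -0.19 ± 0.09 (SE) and the level 87.4% of control, with a 95% interval of 75.9% to 101%. By limma p it ranked 601 among the 16755 features. The value stayed below 0 under every alternative that changes it, namely rescaling or weighting the arrays and leaving out a mouse. Its extremes were -0.26 when control mouse 1 was left out and -0.15 when control mouse 3 was. Under none of the alternatives did it pass the threshold (limma adjusted p 0.983 to 1.00). Its unadjusted limma p was under 0.05 in 6 of them. Myf5 and Myf6 are neighbouring genes, and their log2 fold changes were 0.08 and -0.19, neither past the threshold.

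Myog encodes myogenin, which is needed for myoblasts to form fibres and which rises in denervated adult muscle (feature 6753268). It read 5.59, 5.21 and 5.42 in ATF4 mKO muscle, against 5.08, 5.32 and 5.43 in control muscle. Both groups spread widely, and the highest mouse was an ATF4 mKO one and the lowest a control. The log2 fold change was 0.13 ± 0.13 (SE), the largest in the higher direction among the 10 genes, with a level of 109% of control and a 95% interval of 89.0% to 134%. Leaving out ATF4 mKO mouse 1 or control mouse 1 gave 0.03, while leaving out ATF4 mKO mouse 2 gave 0.22 and leaving out control mouse 3 gave 0.20. Its mean stood at percentile 33.3 of all features, and those of Megf10 and Pax7 at 37.5 and 48.4, below the median. Myf5 stood close to the median, at 50.4. RMA values at such levels are compressed towards background.

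**Figure D2:**
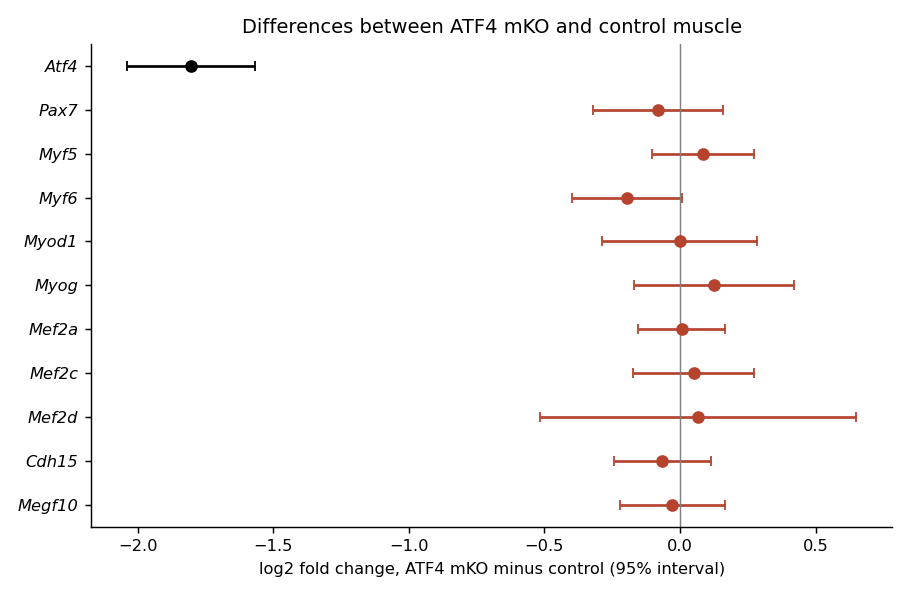
Log2 fold change of ATF4 mKO over control muscle for Atf4 and the 10 genes, with limma's 95% interval (3 mice per group). Atf4 stands at -1.80, while every other interval includes 0; the interval of Mef2d is the widest, from -0.51 to 0.65.

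The MEF2 factors are MADS-box proteins that act with the myogenic factors and that class II histone deacetylases hold in check. Mef2a (feature 6968018) read 8.71, 8.75 and 8.75 in ATF4 mKO muscle, against 8.76, 8.68 and 8.75 in control muscle. All 6 mice lay within a narrow band, and the pooled SD of 0.04 stood at percentile 1.99 of all features. The level was 100.5% of control with an interval of 89.9% to 112%. Mef2c, the MEF2 member tied to fibre type and sarcomere genes, read 10.53, 10.27 and 10.56 in ATF4 mKO muscle (feature 6808609). Control muscle read 10.42, 10.36 and 10.43. ATF4 mKO mouse 2 lay below every control and the other two ATF4 mKO mice above them all. The level was 104% of control (88.7% to 121%).

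Mef2d had the widest spread of the 10 genes and leaned most on 1 mouse (feature 6899100). It read 7.33, 7.29 and 6.33 in ATF4 mKO muscle, against 6.77, 6.94 and 7.04 in control muscle. ATF4 mKO mice 1 and 2 were above every control and ATF4 mKO mouse 3 was below every control. Means were 6.98 ± 0.56 in ATF4 mKO muscle and 6.92 ± 0.13 in control muscle (SD, n = 3 each), and the pooled SD of 0.41 stood at percentile 97.9 of all features. The log2 fold change was 0.07 ± 0.25 (SE), with an interval of 70.0% to 157% of control. Leaving out ATF4 mKO mouse 3 gave 0.39, with a limma adjusted p of 1.00 (range over the alternatives 0.983 to 1.00). Leaving out ATF4 mKO mouse 1 or 2 gave -0.10 or -0.09. A further feature (6899097) is annotated jointly to Mef2d and the locus AW047730, so it names neither. It read 7.86, 7.87 and 7.83 in ATF4 mKO muscle, against 7.74, 7.84 and 7.69 in control muscle, and ATF4 mKO mouse 3 did not stand apart on it.

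Set side by side, the mice shared no direction over the 10 genes. ATF4 mKO mice 1, 2 and 3 had 4, 3 and 7 genes above the control mean, against 4, 4 and 8 for control mice 1, 2 and 3. ATF4 mKO mouse 3 was the highest of its group for Pax7, Myod1, Mef2a, Mef2c and Megf10 and the lowest for Mef2d. ATF4 mKO mouse 2 was the lowest for Myf5, Myod1, Myog, Mef2c and Cdh15. The SD was larger among ATF4 mKO mice for 6 genes and smaller for 4.

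**Figure D3:**
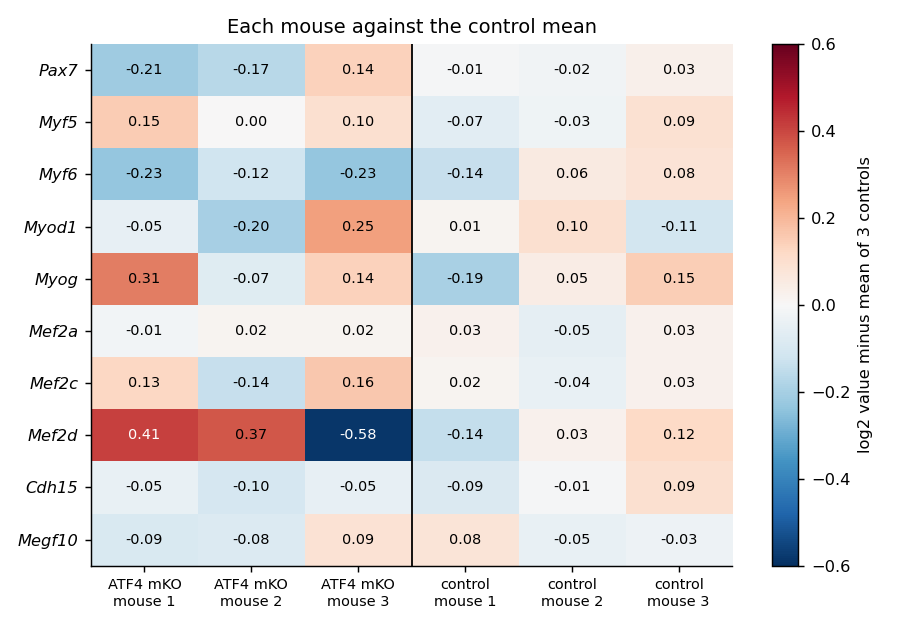
Each mouse's log2 value minus the mean of the 3 controls, for the 10 genes (rows) in ATF4 mKO mice (left 3 columns) and control mice (right 3 columns). The extreme cells belong to Mef2d, at 0.41, 0.37 and -0.58 in ATF4 mKO mice 1, 2 and 3, and Mef2a is near 0 throughout.

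The genes whose pattern over the 6 arrays was most like that of Myf6 were Rsf1, Siah2 and Scyl2, with Pearson's r of 0.98, 0.98 and 0.97. For Myf5 they were Dram1, Ehd2 and Yipf2, with r of 0.99, 0.99 and 0.99. These are the highest of 7619 candidates above the median level, picked for their r over 6 arrays of both genotypes, and are given as a description with no test. Of the 6 genes, Siah2, a ubiquitin ligase, alone had an unadjusted limma p under 0.05 (3.09% of all features), with a log2 fold change of -0.35. It was picked for its likeness to Myf6, which had the smallest limma p of the genes described, so this is no separate result.

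Around the 10 genes, 9 lists of related genes held 132 distinct genes, of which 115 were measured. None passed the threshold, and 2 had an unadjusted limma p under 0.05 (1.74%, against 3.09% of all features), Gadd45a and Musk. The groups did not overlap at 13 of the 115 (11.3%, against 7.78% of all features). Among 20 other satellite cell genes 13 lay above control, beside 8481 of all 16755 features, and the median log2 fold change was 0.04. Their mean level was 6.27, 6.29 and 6.36 in ATF4 mKO mice, against 6.27, 6.28 and 6.21 in control mice. The smallest limma p-values belonged to the adhesion receptor Vcam1, at 120% of control (95% interval 95.1% to 151%), and the proteoglycan Sdc3, at 111% (96.6% to 128%). For Pax3, the close relative of Pax7, the log2 fold change was 0.04 (95% interval -0.16 to 0.25).

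The partners and inhibitors of the bHLH factors, 15 measured, had a median of 0.03. Bhlhe40, a repressor of the bHLH class, and Id4 had the smallest p-values, at 111% of control each (95% intervals 92.7% to 133% and 92.7% to 132%). The E proteins, named for their role after their values were seen, lay near control: Tcf3 at 0.05 (-0.15 to 0.25), Tcf4 at -0.02 (-0.18 to 0.14) and Tcf12 at 0.05 (-0.14 to 0.23), as log2 fold changes with 95% intervals. Id1, Id2 and Id3 sequester E proteins. Of these, Id2 read 6.06, 5.55 and 5.33 in ATF4 mKO muscle, against 5.88, 5.84 and 5.32 in control muscle, a spread within each group larger than the difference between them.

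Upstream and co-acting muscle transcription factors, 16 measured, had a median of 0.07, with 12 above control (8481 of all 16755 features). At 3 of them the groups did not overlap, all higher (3.89% of all features). Nfix, a transcription factor gene, read 9.67, 9.60 and 9.70 in ATF4 mKO muscle, against 9.47, 9.49 and 9.52 in control muscle. Every ATF4 mKO mouse lay above every control, at 112% of the control level, but the test was not passed (log2 fold change 0.16 ± 0.07, SE; limma adjusted p = 1.00). Mef2b, the remaining MEF2 gene, was at 108% of control (96.3% to 122%). The MEF2 repressors, kinases and phosphatases, 13 measured, had a median of 0.03, with the calcium-dependent kinase Camk2b at 106% of control (log2 fold change 0.09, interval -0.07 to 0.25) and the deacetylase Hdac4 at 108% (92.9% to 126%).

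**Figure D4:**
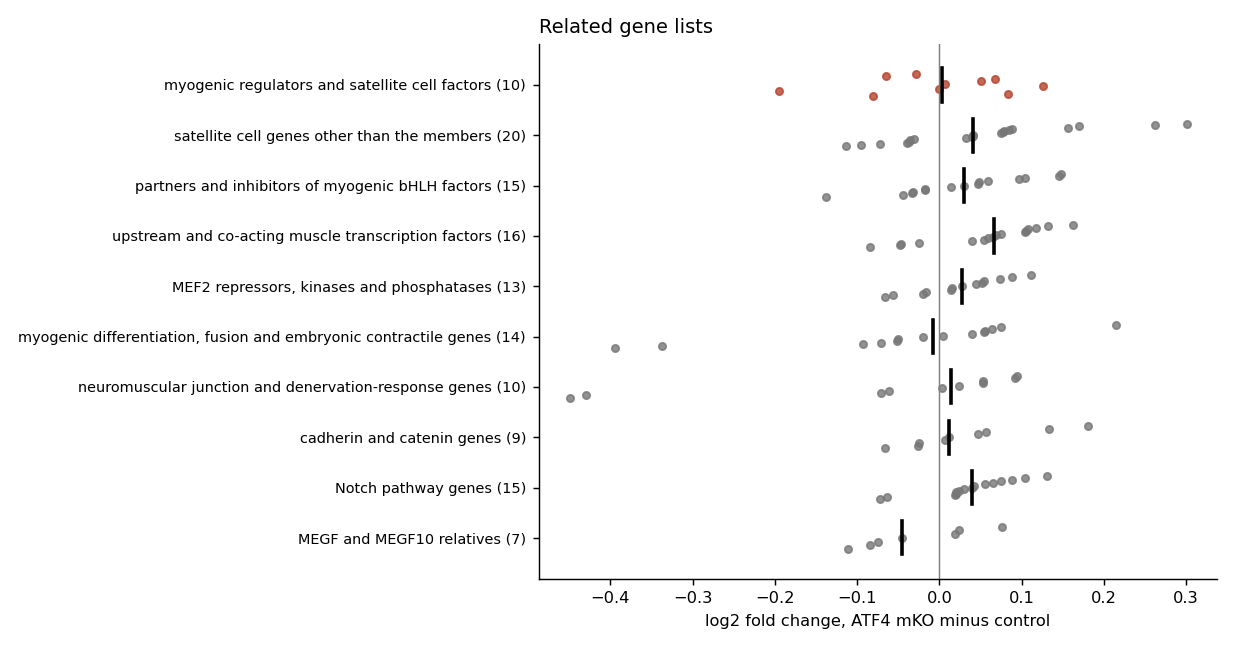
Log2 fold change of ATF4 mKO over control muscle for each measured gene of the list described (top row, red) and of 9 related lists (grey), with the number of measured genes in brackets and the median as a black bar. Medians lie between -0.05 and 0.07; the points furthest left are Gadd45a and Musk.

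Differentiation, fusion and embryonic contractile genes, 14 measured, had a median of -0.01. Of these, 7 lay above control and 7 below. Casq2, the calsequestrin of slow and cardiac muscle, was at 116% of control (95% interval 97.5% to 138%). The troponin genes Tnnc1 and Tnnt2, named though other genes of the list had smaller p-values, were at 79.2% (49.2% to 127%) and 93.7% (76.9% to 114%). Tnnc1 read 8.45, 9.68 and 9.47 in ATF4 mKO muscle, against 9.38, 9.76 and 9.46 in control muscle. Only ATF4 mKO mouse 1 lay below every control. The cell cycle inhibitor Cdkn1a was at 76.1% (45.1% to 128%) with a wide spread, 7.25, 8.02 and 6.64 in ATF4 mKO muscle and 7.46, 8.06 and 7.58 in control muscle. For the fusion protein gene Mymk the log2 fold change was -0.05 (-0.29 to 0.19). Of 10 neuromuscular junction and denervation-response genes, Gadd45a, a stress-induced nuclear protein gene, was at 73.2% of control (63.2% to 84.8%) and Musk, the receptor kinase of the synapse, at 74.3% (61.0% to 90.5%). Neither passed the threshold over all features (limma adjusted p = 0.964 and 1.00). The list's median was 0.01. Chrna1, Chrnd and Chrng, named for their role and not for their p-values, encode acetylcholine receptor subunits and are known targets of the myogenic factors. Their log2 fold changes were 0.09 (-0.10 to 0.29), 0.09 (-0.07 to 0.25) and 0.05 (-0.16 to 0.27). At Chrnd every ATF4 mKO mouse lay above every control, as at 3.89% of all features. The other listed subunit genes, Chrnb1 and Chrne, were at -0.06 (-0.23 to 0.10) and 0.05 (-0.14 to 0.25).

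Among the cadherin and catenin genes, 9 measured with a median of 0.01, the plakoglobin gene Jup was at 113% of control (99.0% to 130%) and Cdh11 at 110% (91.0% to 132%). The 15 Notch pathway genes, a pathway that keeps satellite cells at rest, had 13 members above control (8481 of all 16755 features) and a median of 0.04. Notch3, Hey1 and Heyl also stand in the satellite cell list, and Hes1 in the list of bHLH partners and inhibitors. Their smallest p-values were those of the target gene Hes1, at 107% of control (94.7% to 122%), and the receptor gene Notch3, at 105% (93.3% to 119%). The 7 relatives of Megf10 had a median of -0.05, with Megf11 at 94.3% of control (84.4% to 105%) and the engulfment adaptor Gulp1 at 92.6% (77.1% to 111%).

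Markers of fibres and of other cells in the muscle were compared in the same fit, and none of 61 measured passed limma's threshold. An unadjusted limma p under 0.05 was found for 2 of them (3.28%, against 3.09% of all features). Medians of log2 fold changes were 0.03 for fibres, 0.07 for endothelium, 0.10 for fibroblasts, -0.06 for adipocytes, 0.10 for macrophages, 0.08 for smooth muscle, 0.01 for Schwann cells, 0.05 for tendon and 0.26 for erythroid cells, the last resting on 2 genes. Erythroid markers averaged 6.86, 6.70 and 6.74 in ATF4 mKO mice, against 6.85, 6.70 and 5.98 in control mice, and leaving out control mouse 3, a step added after the data were seen, gave a median of -0.01. Leaving out single mice likewise moved the medians of Schwann cells between -0.08 and 0.08, of tendon between -0.03 and 0.15, of endothelium between 0.02 and 0.11 and of fibroblasts between 0.01 and 0.12. The smooth muscle gene Cnn1, at 128% of control (95% interval 106% to 153%), and the endothelial receptor gene Tie1, at 112% (101% to 125%), had intervals above 100% that did not hold after adjustment (limma adjusted p = 1.00 each). The other genes with the smallest p-values of each list were Ryr1 and Casq1 for fibres, Cdh5 for endothelium, Col1a1 and Lum for fibroblasts, Fabp4 and Cidec for adipocytes, Mrc1 and Cd14 for macrophages, Pdgfrb for smooth muscle, Mbp and Ngfr for Schwann cells, Scx and Comp for tendon, and Slc4a1 and Alas2 for erythroid cells.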

How the data were processed

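Tibialis anterior RNA was amplified by the SPIA method, and the cDNA was fragmented, labelled with biotin and hybridised to 1-colour arrays, per the labels' protocols. The deposited table holds log2 expression values made by the authors with GCOS and RMA on build mm9, per the submitters' processing notes; versions and settings are not given in the sources used here. The log base was read from the values, 1.63 to 13.0. RMA corrects background, quantile-normalises arrays and summarises probes, which compresses small signals. The number of arrays limits the precision. Scanner files were not used here.

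Features were named from the platform annotation, with symbols updated by Entrez identifier. Of 16755 features 14996 had 1 symbol, 1019 several and 740 none; 14941 matched RefSeq (GRCm38.p6). A gene was represented by its 1-symbol feature of highest mean. The fit was limma 3.58.1 in R 4.3.3 (lmFit and eBayes, group as the only term, threshold 0.05) over all features, and it was tested on simulated data. Lists were described by counts and medians. The genes, the lists and the naming rule (in each list, genes with an unadjusted p under 0.05, otherwise the 2 with the smallest p) were chosen with earlier results of these data known. Settings varied were a block for replicate number, median centring, quantile normalisation, filters on low features, 1-symbol features only, other variance models, array weights, a threshold of 0.10, the mean of a gene's features, an exact permutation test and leaving out each mouse.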

Additional observations from a re-analysis of the deposited data

How the results depend on the processing

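The count of 0 among the 10 genes was the same in limma under all 16 alternatives. At an unadjusted limma p under 0.05 was Myf6 with quantile normalisation, with either filter, with an intensity trend, with array weights and without control mouse 1, and Pax7 and Mef2d without ATF4 mKO mouse 3; with all mice and the settings above there was none. Of 167 alternative values for the 10 genes, 154 kept their direction and 13 turned, 11 of these by leaving out a mouse. Many of the 154 could not turn. The block, the filters, the 1-symbol set, the variance models and the permutation test leave a gene's value as it is. So does the mean of a gene's features, as each gene had 1. Only quantile normalisation, median centring, array weights and leaving out a mouse could turn a direction. Myod1 turned to 0.0095 with quantile normalisation and ran from -0.12 to 0.098 without single mice, and Mef2a turned to -0.00022 with array weights and ran from -0.019 to 0.021. Without single mice Mef2c ran from -0.0052 to 0.14, Mef2d from -0.10 to 0.39 and Megf10 from -0.085 to 0.011. An exact two-sided permutation test of 3 against 3 mice cannot go below p = 0.10; among the 10 genes its p ran from 0.20 to 1.00. Both groups carry mouse numbers in the labels. Deviations of same-numbered mice correlated at -0.0021, 0.069 and 0.14, and those of differently numbered mice between -0.12 and 0.060. The labels state no pairing by number, so group was the only term. With the replicate block 1 feature was called in place of 2. In this balanced layout the block leaves each difference as it was and changes only its error. Over all features the count was 7 after dropping the lower 50% of features, 5 after dropping the lowest 33.3%, 7 with robust moderation and an intensity trend, 4 with 1-symbol features, 4 at a threshold of 0.10, 1 with median centring, 1 when any mouse was left out (range 1 to 1) and 0 without moderation, where 632 had an unadjusted limma p under 0.05. Without moderation Atf4 kept -1.80 but had an adjusted p of 0.192; without single mice it ran from -1.88 to -1.71. List medians moved by more than the spread between mice for satellite cell genes (0.074) and relatives of Megf10 (0.047) without the lower 50% of features. These medians are of fewer genes, 13 of 20 satellite cell genes and 2 of 7 relatives of Megf10. The filter drops genes and leaves the value of each remaining gene as it is. Without single mice, list medians moved by more than this spread for relatives of Megf10 (-0.071 to 0.0088) and differentiation genes (-0.018 to 0.035). They also did so for neuromuscular junction genes (-0.014 to 0.063) and cadherin genes (0.0044 to 0.062). The causes of the shifts without single mice were not tested. Features below the median level, which include those of Pax7, Myog and Megf10, were left out in the last filter and have no value there.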
